A study of Mus musculus with 2 samples.

Results

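The miR-200 family and the group of miR-182, miR-183 and miR-96 are microRNAs of epithelial and sensory cells. They were followed here in small RNA of fetal mouse liver. The 8 hairpins, listed by the authors as mmu-mir-200a, mmu-mir-200b, mmu-mir-200c, mmu-mir-141, mmu-mir-429, mmu-mir-182, mmu-mir-183 and mmu-mir-96, were taken by name from the miRNA class of the deposited table, whose 358 hairpin names cover both arms and all genomic copies. They held 216 distinct read sequences under 13 of the authors' names. The Ago2ADH library came from animals carrying Ago2ADH, an Argonaute 2 protein that is catalytically inactive, and the other from wild type animals. Both are fetal liver of the strain B6/129 at E18.5, with 1 library per genotype. The labels do not state the zygosity of Ago2ADH or how many fetuses went into each library. Because there was 1 library of each kind, no difference below has a replicate check, no p-value was computed, and all intervals are 95% intervals for counting error. Such intervals leave out differences between animals and between library preparations, and PCR copies are not independent molecules.

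In small RNA biogenesis, each hairpin is cut by Dicer into a duplex of a 5p and a 3p arm, of which usually one is kept by an Argonaute protein and guides it to target mRNAs through its seed, bases 2 to 8. Argonaute 2 is the mouse Argonaute known for cleaving RNA paired to its guide, and this slicing can remove the discarded arm of well-paired duplexes. The miR-200 family is best known for repressing Zeb1 and Zeb2, transcription factors that switch off E-cadherin, and so for keeping cells epithelial. miR-182, miR-183 and miR-96 are transcribed together and are best known from hair cells and photoreceptors.

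The Ago2ADH library held 7046197 reads, of which 2811227 were miRNA reads, and the wild type library held 7599870 and 2808232. Levels below are in RPM, parts per 1e6 of the miRNA reads of the library, on which scale 3 reads make 1.07 RPM in either library. The genotype label was looked at through the Ago2 mRNA itself: the codon of the first catalytic aspartate was covered by 2 reads in Ago2ADH that encode D598A, with the start methionine as residue 1, and by 0 reads in wild type, which therefore gives no check of the wild type label. Fragments of this mRNA numbered 318 in Ago2ADH and 229 in wild type. The erythroid miRNA miR-451-5p, whose maturation is known to need Argonaute 2 slicing, had 4373 reads in Ago2ADH and 326892 in wild type. The median log2 ratio of Ago2ADH to wild type over the 353 miRNA arms with 100 or more reads was 0.15, and the ratios below should be read against it.

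The hairpins lie in 3 genomic clusters, all on the minus strand (RefSeq, GRCm38.p6). Mir200b, Mir200a and Mir429 span 1846 nt of chromosome 4 (156053905 to 156055750), transcribed in that order. In GENCODE M21 all lie within introns of Ttll10 on the same strand, and Mir429 also overlaps an exon of the processed transcript Gm13648. Mir200c and Mir141 span 477 nt of chromosome 6 (124717914 to 124718390) within an intron of the antisense gene Gm15884, 964 nt or more from the nearest protein-coding gene, Phb2. Mir141 also overlaps an exon of Gm29008, a transcript still to be experimentally verified. Mir183, Mir96 and Mir182 span 3820 nt of chromosome 6 (30165918 to 30169737). No other annotated gene overlaps them, and the nearest protein-coding gene is Nrf1.

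The mature sequences of the main arm of each hairpin are shown because they define the groups compared below. They are written 5′ to 3′ with the seed in capitals, as RefSeq gives them for GRCm38.p6, and all 8 begin with U.
miR-200a-3p: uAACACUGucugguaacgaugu
miR-141-3p: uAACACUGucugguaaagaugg
miR-200b-3p: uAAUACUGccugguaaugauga
miR-200c-3p: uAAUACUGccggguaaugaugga
miR-429-3p: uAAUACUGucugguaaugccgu
miR-182-5p: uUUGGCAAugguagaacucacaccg
miR-96-5p: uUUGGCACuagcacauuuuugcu
miR-183-5p: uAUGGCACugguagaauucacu
The miR-200 family falls into the seed AACACUG, shared by miR-200a-3p and miR-141-3p, and the seed AAUACUG, shared by miR-200b-3p, miR-200c-3p and miR-429-3p. The pair of seeds differs by 1 base, C4U from miR-200a-3p to miR-200b-3p (positions counted from 1 at the 5′ end). Within a seed the members are close: 20 of 22 compared bases are shared by miR-200a-3p and miR-141-3p, which differ by C17A and U22G, and likewise 20 of 22 by miR-200b-3p and miR-200c-3p, which differ by U11G and A22G. The seeds of miR-182-5p and miR-96-5p differ by A8C. Each miR-200 seed thus occurs in both miR-200 clusters. Of the member reads, 99.7% in Ago2ADH and 99.4% in wild type match the genome once, so nearly all reads of these similar miRNAs belong to 1 locus.

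Together the 8 hairpins gave 18356 reads placed on a hairpin in Ago2ADH and 13256 in wild type, which is 0.653% of the miRNA reads in Ago2ADH and 0.472% in wild type. The sum was 1.38-fold higher in Ago2ADH (95% interval 1.35 to 1.41), a log2 ratio of 0.47. In this bulk tissue a larger number of cells of a type cannot be told apart from more RNA per cell. The main arms spanned from the 54th to the 228th place among 628 miRNA arms in Ago2ADH and from the 67th to the 325th in wild type.

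Of the 16 possible arms, 14 had reads and 9 had 100 or more reads over both libraries. An arm was called higher or lower when its ratio was 2 or more, or 0.5 or less, with an interval excluding 1; "rose" is used for such arms. 1 of the 9 arms, miR-141-3p, rose and 0 fell, while 5.67% of all 353 tested arms (20 arms) were higher and 0.85% (3 arms) lower. With median-of-ratios scaling, which sets the median log2 ratio to 0, the counts over all arms were 13 higher and 4 lower, and without the 10 most abundant arms in the total 10 and 4. The interval lay above 1 for 7 of the 9 arms, against 48.7% of all tested arms, and below 1 for 0, against 19.8%. With median-of-ratios scaling it lay above 1 for 5 of the 9 and below for 0, against 30.6% and 31.7% of all tested arms. Without the 10 most abundant arms in the total it lay above 1 for 5 and below for 1, miR-200b-3p, against 26.3% and 37.1%. The median log2 ratio was 0.31 over the 9 arms, beside 0.15 over all tested arms, and 6 of the 9 lay above that overall median.

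The chromosome 4 cluster supplied most of the family. miR-200a-3p had 8062 reads in Ago2ADH, or 2868 RPM, and 4888 reads in wild type, or 1741 RPM. miR-429-3p had 5155 reads in Ago2ADH (1834 RPM) and 4146 in wild type (1476 RPM). miR-200b-3p had 2584 reads in Ago2ADH (919 RPM) and 2422 in wild type (862 RPM). In both libraries the order of levels was miR-200a-3p, miR-429-3p, miR-200b-3p, with both gaps beyond counting error. The log2 ratios were 0.72 for miR-200a-3p (interval 0.67 to 0.77), 0.31 for miR-429-3p (0.25 to 0.37) and 0.09 for miR-200b-3p (0.01 to 0.17), which turned to -0.06 with median-of-ratios scaling and to -0.11 without the 10 most abundant arms in the total. Relative to the overall median, the first lay 0.57 above and the last 0.06 below. Since the 3 hairpins share a host region, their ratios were compared with one another, which needs no scaling. miR-200a-3p gave 3.12 reads per read of miR-200b-3p in Ago2ADH and 2.02 in wild type, a difference in log2 ratio of 0.63 (Woolf interval 0.53 to 0.72). Against miR-429-3p it was higher by 0.41 (0.33 to 0.49), and miR-429-3p exceeded miR-200b-3p by 0.22 (0.12 to 0.32).

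**Figure D1:**
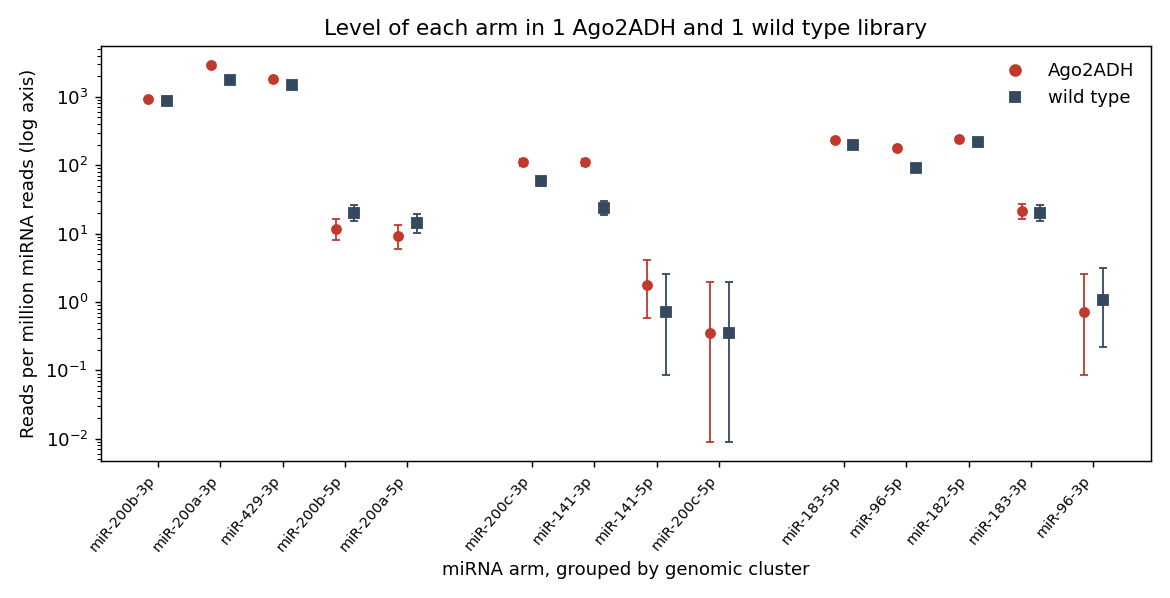
Level in RPM (log axis) of the 14 member arms with reads, in the Ago2ADH library (circles) and the wild type library (squares), with exact 95% counting intervals. The miR-200a-3p points, at 2868 RPM in Ago2ADH and 1741 RPM in wild type, are the highest, and miR-141-3p, at 110.3 RPM in Ago2ADH and 23.9 RPM in wild type, shows the widest gap among the arms with 100 or more reads.

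The chromosome 6 pair was scarce. miR-141-3p had 310 reads in Ago2ADH (110.3 RPM) and 67 in wild type (23.9 RPM). It rose 4.62-fold (3.54 to 6.11), a log2 ratio of 2.21 (1.82 to 2.61), which was the 4th highest of the 353 tested arms. miR-200c-3p had 311 reads in Ago2ADH (110.6 RPM) and 163 in wild type (58.0 RPM), a 1.91-fold ratio (1.57 to 2.32) that stayed just under the 2-fold limit, with a log2 ratio of 0.93. Their levels were within counting error of each other in Ago2ADH, with 0.997 reads of miR-141-3p per read of miR-200c-3p, while wild type had 0.411. The difference in log2 ratio between them was 1.28 (0.81 to 1.75), the widest within any of the 3 clusters. Their summed reads, 627 in Ago2ADH and 233 in wild type, gave a 2.69-fold ratio (2.31 to 3.14) that met the size rule, while the chromosome 4 cluster was at 1.37-fold (1.34 to 1.40).

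The third cluster was intermediate in level. miR-182-5p had 668 reads in Ago2ADH (238 RPM) and 609 in wild type (217 RPM). miR-183-5p had 645 reads in Ago2ADH (229 RPM) and 546 in wild type (194 RPM). miR-96-5p had 494 reads in Ago2ADH (176 RPM) and 255 in wild type (90.8 RPM). miR-96-5p was the lowest of the 3 in both libraries, while miR-182-5p and miR-183-5p lay within counting error of each other in both. The log2 ratio was 0.95 for miR-96-5p (0.73 to 1.18), just under the limit, 0.24 for miR-183-5p (0.07 to 0.41) and 0.13 for miR-182-5p (-0.03 to 0.29), which turned to -0.02 with median-of-ratios scaling and -0.07 without the 10 most abundant arms. miR-96-5p thus exceeded miR-183-5p by 0.71 (0.44 to 0.99) and miR-182-5p by 0.82 (0.55 to 1.09), and only 116 nt lie between its hairpin and that of miR-183. miR-183-5p and miR-182-5p differed by 0.11 (-0.12 to 0.34), which is within counting error. The cluster sum was 1.27-fold (1.19 to 1.36).

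Over the 3 clusters, 6 of the 7 pairs of main arms from the same cluster differed in log2 ratio beyond counting error. Among other miRNAs whose hairpins lie within 10000 nt of the next on the same strand, 66.8% of 572 pairs did, of which 465 pairs came from 1 large cluster. In each cluster of 3 hairpins the one transcribed in the middle, miR-200a or miR-96, had the highest ratio, and in the cluster of 2 the later one, miR-141. This was seen after the ratios were known, and how often it holds in clusters of other miRNAs was not computed. The order of all 8 main arms was miR-141-3p, miR-96-5p, miR-200c-3p, miR-200a-3p, miR-429-3p, miR-183-5p, miR-182-5p and miR-200b-3p. In this order miR-96-5p and miR-200c-3p did not differ beyond counting error, with a difference of 0.02 (-0.33 to 0.37). miR-96-5p and miR-200c-3p held the 22nd and 23rd places among the 353 tested arms.

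**Figure D2:**
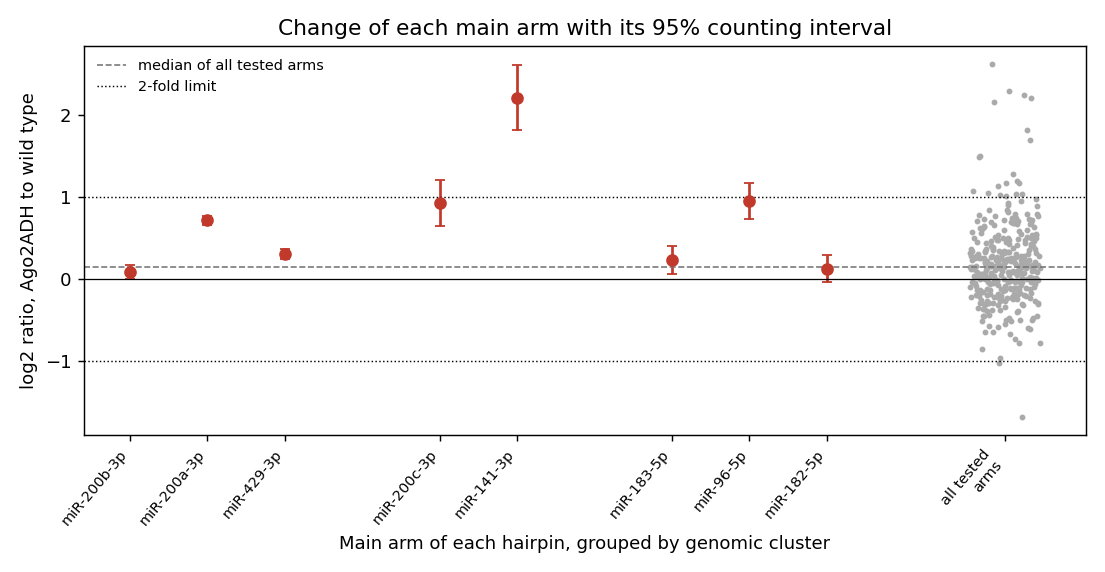
Log2 ratio of Ago2ADH to wild type for the main arm of each hairpin, grouped by cluster, with exact conditional binomial 95% intervals; grey points are all tested arms except miR-451-5p, which at -6.23 lies below the axis. The highest arms of the clusters are miR-200a-3p at 0.72, miR-141-3p at 2.21 and miR-96-5p at 0.95, of which miR-141-3p lies above the 2-fold limit.

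Grouped by seed instead of by cluster, AACACUG took a larger share of the family in Ago2ADH. The reads with this seed, from miR-200a-3p and miR-141-3p, numbered 8372 in Ago2ADH and 4955 in wild type (log2 ratio 0.76, interval 0.70 to 0.81). Those with AAUACUG, from miR-200b-3p, miR-200c-3p and miR-429-3p, numbered 8050 in Ago2ADH and 6731 in wild type (log2 ratio 0.26, interval 0.21 to 0.30). AACACUG made up 50.98% of the 3p reads of the family in Ago2ADH (50.2 to 51.7) and 42.4% in wild type (41.5 to 43.3). Most of this came from miR-200a-3p, at 49.1% in Ago2ADH and 41.8% in wild type. miR-200b-3p made up 15.7% in Ago2ADH and 20.7% in wild type. Among the 5p reads of the other cluster, miR-96-5p made up 27.3% in Ago2ADH (25.3 to 29.5) and 18.1% in wild type (16.1 to 20.2).

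**Figure D3:**
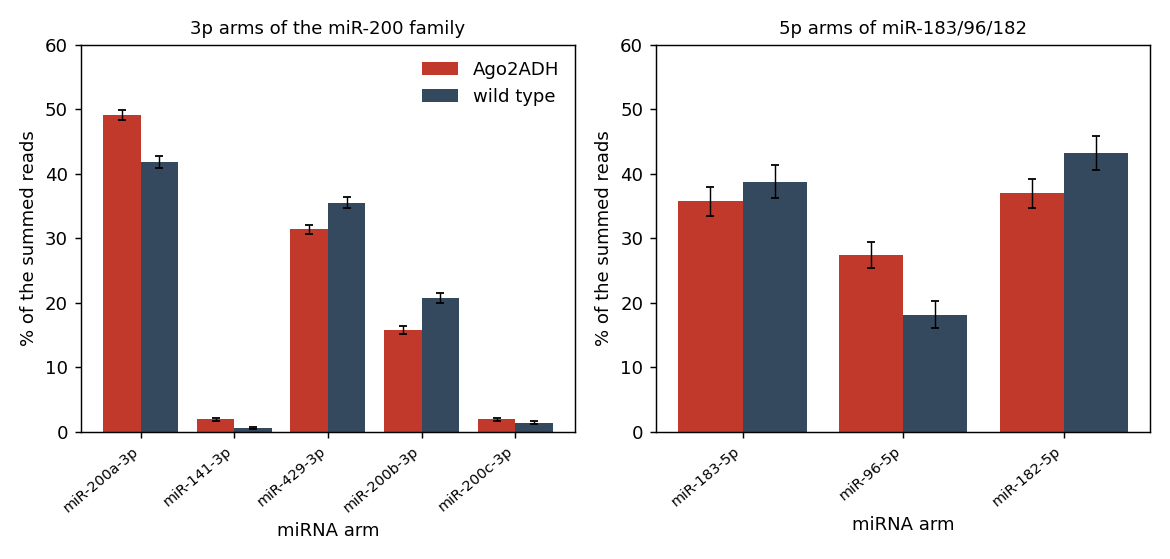
Share of each arm in the summed 3p reads of the miR-200 family (left) and in the summed 5p reads of miR-183, miR-96 and miR-182 (right), in Ago2ADH (red) and wild type (dark), with exact binomial 95% intervals. miR-200a-3p takes 49.1% in Ago2ADH and 41.8% in wild type, and miR-96-5p 27.3% in Ago2ADH and 18.1% in wild type, with intervals that do not overlap.

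The discarded arms were examined because slicing can remove them. The hairpins of miR-200a and miR-200b are shown with both RefSeq arms in capitals, since theirs were the minor arms with a shift beyond counting error.
miR-200a hairpin: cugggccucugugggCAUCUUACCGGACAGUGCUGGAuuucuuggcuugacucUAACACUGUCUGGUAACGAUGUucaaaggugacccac
miR-200b hairpin: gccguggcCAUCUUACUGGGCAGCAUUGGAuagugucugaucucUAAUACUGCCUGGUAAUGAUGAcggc
miR-200a-5p had 26 reads in Ago2ADH, or 0.321% of the reads of its hairpin (0.210 to 0.471), and 40 in wild type, or 0.812% (0.580 to 1.10). miR-200b-5p had 33 reads in Ago2ADH, or 1.26% (0.870 to 1.77), and 57 in wild type, or 2.30% (1.75 to 2.97). Both minor arms thus took a smaller share in Ago2ADH, while their 3p partners were level or higher. Their own log2 ratios were -0.62 for miR-200a-5p (-1.39 to 0.12), within counting error, and -0.79 for miR-200b-5p (-1.45 to -0.15). Both arms had under 100 reads over both libraries. The log2 odds ratio of minor to major arm was -1.33 for miR-200a (-2.04 to -0.63) and -0.87 for miR-200b (-1.49 to -0.25). Summed over the family, the 5p arms had 65 reads in Ago2ADH and 100 in wild type (log2 ratio -0.62, interval -1.10 to -0.16), beside 0.49 for the 3p arms.

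miR-183-3p was the best represented minor arm, with 60 reads in Ago2ADH and 57 in wild type. Its log2 ratio was 0.07 (-0.48 to 0.62), which turned to -0.08 with median-of-ratios scaling and to -0.13 without the 10 most abundant arms. Its share did not shift beyond counting error: 8.51% in Ago2ADH (6.56 to 10.8) and 9.45% in wild type (7.24 to 12.1). The others were rare. miR-141-5p had 5 reads in Ago2ADH and 2 in wild type, miR-96-3p had 2 in Ago2ADH and 3 in wild type, and miR-200c-5p had 1 in each. miR-429-5p and miR-182-3p had 0 reads in either library, and the limit of 3 reads taken for a count of 0 corresponds to 1.07 RPM. All 6 member hairpins with reads on both arms and at least 200 in total had a log2 odds ratio below 0, but for 4 of them the interval included 0. Their median of -0.997 lies between the values of miR-141 and miR-200c, whose minor arms had 5 reads or fewer in each library. Over all 214 such hairpins the median was -0.17, so most of these also lay below 0, and the interval lay below 0 for 22.0% of them.

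Read length and read ends were compared next. The most frequent read was the RefSeq mature form for 6 of the 8 main arms. For miR-200a-3p and miR-141-3p it was 1 nt longer at the 3′ end, giving 23-nt reads. These were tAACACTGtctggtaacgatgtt for miR-200a-3p, with 5676 reads in Ago2ADH and 3317 in wild type, and tAACACTGtctggtaaagatggc for miR-141-3p, with 148 reads in Ago2ADH and 34 in wild type. The rise of miR-141-3p was shared by its 23-nt form, with a log2 ratio of 2.12 (1.57 to 2.70), and its 22-nt form, with 127 reads in Ago2ADH, 26 in wild type and a log2 ratio of 2.29 (1.67 to 2.96).

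miR-182-5p was the longest member, with 56.7% of its reads at 25 nt in Ago2ADH and 57.0% in wild type. miR-96-5p was the most uniform in length, with 92.3% of reads at 23 nt in Ago2ADH and 90.2% in wild type. miR-429-3p came next, with 88.5% at 22 nt in Ago2ADH and 87.9% in wild type. Mean read length differed between the libraries by -0.144 to 0.107 nt over the 8 main arms, with a median of 0.0177 nt, beside a median of 0.0266 nt over all 353 tested arms. Among 20 length classes of the main arms with 100 or more reads, the odds differed beyond counting error for 4, all in miR-200a-3p and miR-200b-3p. The classes of an arm are not independent, and the share over the length classes of all tested arms was not computed. For the 21-nt classes the log2 odds intervals only just excluded 0, at -0.878 to -0.005 for miR-200a-3p and 0.017 to 0.491 for miR-200b-3p. The 23-nt class of miR-200a-3p was 70.5% in Ago2ADH (69.4 to 71.4) and 67.9% in wild type (66.6 to 69.2). That of miR-200b-3p went the other way, with 33.9% in Ago2ADH (32.0 to 35.7) and 37.5% in wild type (35.6 to 39.5). The dominant length of each of the 8 main arms was the same in both libraries.

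**Figure D4:**
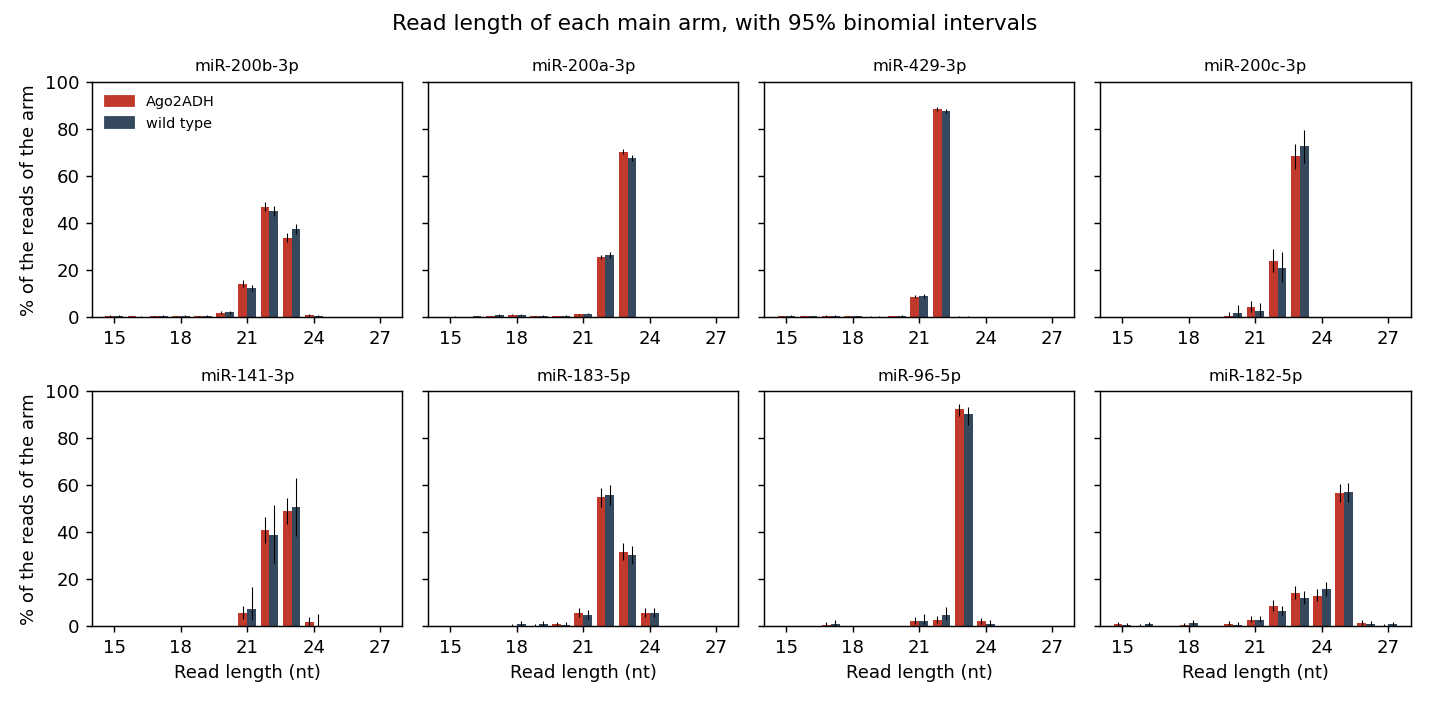
Read length (nt) of the 8 main arms as a percentage of the reads of each arm, in Ago2ADH (red) and wild type (dark), with exact binomial 95% intervals; length classes with under 5 reads over both libraries are left out. Each arm has the same dominant length in both libraries, 22 nt for miR-429-3p (88.5% in Ago2ADH and 87.9% in wild type), 23 nt for miR-96-5p (92.3% in Ago2ADH and 90.2% in wild type) and 25 nt for miR-182-5p (56.7% in Ago2ADH and 57.0% in wild type).

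The 5′ end fixes the seed, and 7 of the 8 main arms began at 1 hairpin position in over 96% of reads in each library. The exception was miR-183-5p. It began at hairpin position 6 in 69.6% of reads in Ago2ADH (65.9 to 73.1) and 67.6% in wild type (63.5 to 71.5), and at position 7 in 28.8% in Ago2ADH (25.4 to 32.5) and 30.6% in wild type (26.7 to 34.6). The main reads of both starts are given with their seeds in capitals, as T in the deposited table.
position 6: tATGGCACtggtagaattcact
position 7: aTGGCACTggtagaattcactg
The first had 259 reads in Ago2ADH and 198 in wild type, and the second had 95 in Ago2ADH and 106 in wild type. The later start moves the seed by 1 base, to UGGCACU, and the odds of either start did not differ between genotypes beyond counting error. Its partner miR-183-3p also began 1 nt after the RefSeq start, with 55 of 60 reads in Ago2ADH and 54 of 57 in wild type at hairpin position 46, and the RefSeq form itself had 1 read in Ago2ADH and 2 in wild type.

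Reads with 1 or 2 added 3′ nucleotides that the genome does not encode were not counted above. With them added to the total, they made up 22.1% of the reads of miR-200c-3p in Ago2ADH and 21.3% in wild type but 1.59% of those of miR-96-5p in Ago2ADH and 2.30% in wild type. None of the 9 arms shifted with non-overlapping intervals, while of 349 arms 14 had a higher share in Ago2ADH and 38 a lower one, and the median share was 14.5% in Ago2ADH and 14.96% in wild type, beside 14.4% in Ago2ADH and 14.9% in wild type over all of them.

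Other miRNAs known from epithelia were set beside these clusters. Among 12 such names, 10 arms had 100 or more reads and 0 met the size rule in either direction. Their median log2 ratio was -0.07, beside 0.15 over all tested arms. The interval lay above 1 for 3 arms and below 1 for 3, against 48.7% and 19.8% of all tested arms. With median-of-ratios scaling it lay below 1 for more of these arms than above, with miR-194-5p among those below. Over all tested arms that scaling gave 30.6% above and 31.7% below. miR-194-5p, an intestinal and hepatic miRNA, had 44330 reads in Ago2ADH and 41801 in wild type (log2 ratio 0.08). Its cluster partner miR-192-5p had 20525 in Ago2ADH and 14432 in wild type (0.51). Levels of miR-31-5p were lower in Ago2ADH beyond counting error, with 7609 reads in Ago2ADH and 9304 in wild type (-0.29). miR-375-3p, known from pancreatic islets, had 1886 in Ago2ADH and 1565 in wild type (0.27). The keratinocyte miRNAs miR-203-3p and miR-205-5p had log2 ratios of -0.26 and -0.66.

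The epithelial label was set against short fragments of marker mRNAs in the same table, scaled to all reads. Such fragments reflect mRNA breakdown as well as mRNA level, so they are a rough measure. Of 22 epithelial genes, 21 were listed, with summed levels of 62.6 RPM of all reads in Ago2ADH and 59.2 in wild type (log2 ratio 0.08, interval -0.11 to 0.27). Cdh1, which encodes E-cadherin, had 131 reads in Ago2ADH and 147 in wild type. Ocln, which encodes a tight junction protein, had 59 in Ago2ADH and 45 in wild type. The intervals of both included 0. Esrp2, an epithelial splicing regulator, had 46 in Ago2ADH and 47 in wild type. Lsr, which encodes a tricellular junction protein, had 42 in Ago2ADH and 38 in wild type. Of the 9 epithelial genes with 20 or more reads, 0 lay beyond counting error in either direction. Scaling to the reads of mRNAs adds 0.09 to every gene, and Ocln was among those whose interval then lay above 0. Over all 9550 genes, 6.21% lay above 0 beyond counting error and 5.95% below.

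Genes of bile duct epithelium were set beside them. Onecut1, a hepatobiliary transcription factor, had 72 reads in Ago2ADH and 99 in wild type. Sox4 had 18 in Ago2ADH and 17 in wild type. The defining keratins and Epcam had 6 reads or fewer in each library. Krt19 had 0 in Ago2ADH and 1 in wild type, Epcam 1 in Ago2ADH and 3 in wild type, and Krt7 6 in each. Sox9 had 16 in Ago2ADH and 7 in wild type, and Spp1 11 in Ago2ADH and 4 in wild type, both with intervals that include 0. The list of 10 summed to 23.8 RPM of all reads in Ago2ADH and 23.3 in wild type (log2 ratio 0.03, interval -0.28 to 0.35). Lists of other epithelial organs summed to lower levels. The gut list summed to 5.11 RPM of all reads in Ago2ADH and 2.63 in wild type (log2 ratio 0.96, interval 0.13 to 1.82). Vil1 had 19 reads in Ago2ADH and 8 in wild type. Tff3 had 9 in Ago2ADH and 5 in wild type, and Lgals4 6 in Ago2ADH and 2 in wild type. Fabp2 had 0 in Ago2ADH and 4 in wild type. Of these genes, only Vil1 had an interval that excluded 0. The lung list had 12 reads in Ago2ADH and 6 in wild type, the pancreas list 5 in Ago2ADH and 2 in wild type over the 3 of its 13 genes that were listed, and the skin list 23 in Ago2ADH and 16 in wild type. Their part in the higher miR-141-3p was not tested. Hepatocyte genes were mixed: of 11, 6 lay below 0 beyond counting error and 3 above, with a median log2 ratio of -0.04. The log2 ratio of their summed reads was 0.05 (0.04 to 0.07). Trf, which encodes transferrin, was at 0.32 and the fetal albumin homologue Afp at 0.29, while Alb was at -0.04 and Serpina1a at -0.88. Of 10 erythroid genes, 7 lay below 0 and 0 above, and their sum was at -0.63 (-0.67 to -0.59). Of 10 mesenchymal and stellate cell genes with 20 or more reads, 3 lay below 0 beyond counting error and 1 above, with a median of -0.05. Most of the reads were of Fn1, which encodes fibronectin, with 5585 in Ago2ADH and 6330 in wild type (-0.07). The collagen genes Col1a2, at -1.04 (-1.90 to -0.22), and Col3a1, at -0.93 (-1.83 to -0.08), were lower in Ago2ADH, and Cdh2, which encodes N-cadherin, was higher, at 0.29 (0.02 to 0.57). Which cells of this bulk tissue gave the fragments of Fn1 and Cdh2 was not tested. Scaling to the reads of mRNAs adds 0.09 to every gene, which turns Fn1, Alb and the medians of the mesenchymal and hepatocyte lists positive. The intervals of Fn1 and Col3a1 then include 0. Of the 11 hepatocyte genes, more then lie above 0 beyond counting error than below, with Alb among those above.

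Fragments of mRNAs known as targets of these miRNAs were counted last. Of 9 known targets of the miR-200 family, 2 lay below 0 beyond counting error and 0 above, where 5.95% of all genes lay below and 6.21% above. They were Suz12, a Polycomb subunit, with 71 reads in Ago2ADH and 110 in wild type (log2 ratio -0.52, interval -0.97 to -0.08), and Bap1, a nuclear deubiquitinase, with 13 reads in Ago2ADH and 32 in wild type. Zeb1 had 115 reads in Ago2ADH and 125 in wild type (-0.01), and Zeb2 had 238 in Ago2ADH and 263 in wild type (-0.03), both within counting error. Sec23a had 108 in Ago2ADH and 131 in wild type (-0.17), and Qk had 125 in Ago2ADH and 105 in wild type (0.36). Of 10 known targets of miR-182, miR-183 and miR-96, 1 lay below 0 and 0 above. That was Cited2, a transcriptional co-regulator, with 82 reads in Ago2ADH and 142 in wild type (-0.68, interval -1.09 to -0.28). The forkhead factors Foxo1 and Foxo3 had log2 ratios of 0.14 and 0.09, Gsk3b -0.29 and Itgb1 0.23, all within counting error. The median log2 ratio was -0.01 over the first list and -0.07 over the second, beside -0.01 over all genes with 20 or more fragments. Scaled to the reads of mRNAs, the list medians were 0.07 and 0.02, beside 0.08 over all genes. With that scaling, which adds 0.09 to every gene, the interval of Suz12 included 0 and that of Qk lay above 0. The intervals of Bap1 and Cited2 stayed below 0.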

How the data were processed

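Small RNA of 19 to 30 nt was gel-purified, ligated to Solexa adapters and amplified, per the labels' protocols. Each distinct sequence has a raw count in either library, as the authors deposited it, with its number of genome matches, a class and a name, per the file headers. No aligner, build or trimming step is named in the labels or headers. Reads of the miRNA class were placed by exact match on 1174 hairpins of GENCODE M21 (99.9% of miRNA reads in Ago2ADH and 99.8% in wild type), and arms were set by the middle of the read. Copies of a miRNA were summed. 3 member sequences (3 reads in Ago2ADH, 1 in wild type) match the opposite strand and were left out. Ratios have exact conditional binomial intervals, shares exact Clopper-Pearson intervals, and differences between ratios Woolf intervals (0.5 added to each count for odds within a hairpin or arm). Every arm of the 8 hairpins is named, and of each other list the 4 members with most reads or the summed level; further genes of those lists (miR-203-3p, miR-205-5p, Krt19, Krt7, Epcam, Spp1, Col1a2, Col3a1, Serpina1a, Suz12, Bap1, Cited2) were named after their values were seen. One gene that this rule names is not reported here. The members and lists were chosen with earlier results of these data known. Python 3.11.15, SciPy 1.17.1 and pandas 2.3.3 were used. Alternatives were other scalings, read lengths, genome matches, read minimums and fold limits, and, chosen after seeing the data, adding reads with untemplated 3′ nucleotides.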

Additional observations from a re-analysis of the deposited data

How the results depend on the processing

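miR-141-3p met the size rule under every scaling and read filter tried. Of the 9 member arms, 3 were called higher when scaled to all reads (miR-96-5p at 1.06 and miR-200c-3p at 1.04 joined) and 4 with a fold limit of 1.5. Of all 353 tested arms, 25 were called higher when scaled to all reads, 59 with a fold limit of 1.5 and 7 with a limit of 3. Over all arms, those called higher numbered 13 with median-of-ratios scaling, 10 without the 10 most abundant arms in the total and 34 with no minimum. Those called lower numbered 7 with no minimum and 13 with a limit of 1.5. The log2 ratio of the summed chromosome 4 cluster was 0.57 scaled to all reads, 0.30 with median-of-ratios scaling, 0.25 without the 10 most abundant arms and 0.40 with reads of 20 to 24 nt. For the cluster of miR-183, miR-96 and miR-182 the first 3 of these gave 0.46, 0.19 and 0.14. Of 54 values (9 arms, 6 alternatives), 46 kept their sign; the other 8 belong to miR-200b-3p (down to -0.11), miR-182-5p (down to -0.07) and miR-183-3p (down to -0.13). Another total moves every arm by the same amount; for the other alternatives the cause was not tested. Adding reads with untemplated 3′ nucleotides, chosen after seeing the data, put miR-200c-3p before miR-96-5p in the order of the 8 main arms. Leaving out a library was not possible. No paired analysis was possible because each genotype has 1 library. Depth limits the minor arms, none of which has over 60 reads in a library.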
